A study of Mus musculus with 52 samples.

Results

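The RNA of endothelial cells (ECs) from the capillaries of the cerebellum was compared with that of ECs from the capillaries of the anterior pituitary of WT mice. The members were 4 RNA-seq libraries, 2 of cerebellum and 2 of anterior pituitary, of 52 samples and 40 RNA-seq libraries of all kinds, and they were taken by their labels alone. All 4 came from adult male mice that carried Tie2-GFP, in which regulatory sequences of Tie2 (Tek) drive green fluorescent protein in ECs. For the pituitaries, 20 to 30 mice of 30 to 90 days of age were pooled for each replicate. The labels and the study's methods name no Cre driver for these WT mice. Tissue was dissociated with papain, GFP+ cells were collected by fluorescence-activated sorting, and their RNA was amplified to cDNA and sequenced single-end over 75 cycles. GFP-negative cells of the same tissues were sequenced in the same way and serve here as the background of the parenchyma. The 12 GFP+ libraries of the study shared 1 estimate of the spread between replicates. Apart from the WT libraries these were of posterior pituitary and of mice in which beta-catenin was stabilized in ECs. The study's methods describe the 2 replicates of a tissue as biological. With 2 per tissue, the p-values measure the spread between these samples.

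Capillaries of most of the brain form the blood-brain barrier. Glucose, amino acids, lipids and hormones cross their ECs on dedicated carriers, and drugs are returned to the blood by efflux pumps. Little passes by transcytosis, and tight junctions join the cells. Canonical Wnt signaling, in which beta-catenin enters the nucleus and acts with TCF/LEF factors, is known to induce and keep this state. Endocrine organs such as the pituitary need the opposite exchange, and their capillaries are fenestrated: the ECs are perforated by pores closed by a diaphragm whose main protein is Plvap, and water, small solutes and peptide hormones pass readily.

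The 4 libraries held between 28116011 and 33458597 expected counts. Over the genes tested, log2 CPM correlated at 0.889 between the cerebellum replicates and at 0.847 between the anterior pituitary replicates, and at 0.761 to 0.786 between tissues. The libraries carried the RNA of ECs. The sum over 10 endothelial markers, among them Pecam1, Cdh5, Kdr, Tek and Erg, was 1330 and 1515 TPM (transcript levels scaled by length and by library total) in cerebellum and 1891 and 2330 TPM in anterior pituitary, and none of the 10 was at 0 in any library. Pecam1, an adhesion molecule of all ECs, was at 319.5 and 338 TPM in cerebellum ECs and 247 and 249 TPM in anterior pituitary ECs, against 1.42 and 1.5 TPM and 1.26 and 0.151 TPM in the GFP-negative cells of either tissue. RNA of other cells was present too. The sum over 15 hormone and endocrine genes was 7068 and 4566 TPM in the anterior pituitary libraries and 36.6 and 33.2 TPM in the cerebellum libraries. The sum over 11 markers of pericytes and smooth muscle was 1134 and 910 TPM in cerebellum and 191 and 226 TPM in anterior pituitary, and hemoglobin held 6.51% and 0.716% of the TPM in cerebellum against 0.221% and 0.135% in anterior pituitary. Their part in the differences that follow was not tested. In such bulk libraries fewer cells of a type and less RNA per cell cannot be told apart.

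Of 17915 genes tested, 538 (3.0%) were higher in cerebellum ECs and 404 (2.26%) higher in anterior pituitary ECs, at an edgeR quasi-likelihood adjusted p under 0.05 and a difference of at least 2-fold. An unadjusted edgeR p under 0.05 was reached by 8.26% of all genes with the higher level in cerebellum and 7.09% with the higher level in anterior pituitary. The median log2 fold change over all genes was 0. The fit was repeated under 14 alternatives (other tools, scalings, filters and sample sets, and each library left out), and a call is said to hold throughout where it was made in the same direction under each of them. Throughout, a log2 fold change is that of cerebellum over anterior pituitary with its standard error, so that negative values are higher in anterior pituitary, and levels are in TPM, which are scaled by transcript length. Among genes higher in cerebellum ECs, 72 had a mean level in the GFP-negative cells of cerebellum above both EC libraries, and the same held for 46 of the genes higher in anterior pituitary ECs. A stricter set was therefore taken: genes that were also at least 2-fold higher in ECs than in GFP-negative cells of their own tissue and at 10 TPM or more in both EC libraries. These endothelial genes numbered 212 for cerebellum (1.18% of the genes tested) and 208 for anterior pituitary (1.16%). The difference between ECs was tested against that between GFP-negative cells (edgeR interaction over 24 sorted libraries). In this test 221 genes (1.23%) were called above 0 and 405 (2.26%) below 0. A value above 0 means a ratio of cerebellum over anterior pituitary that was larger in ECs than in GFP-negative cells. It can come from either fraction.

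**Figure D1:**
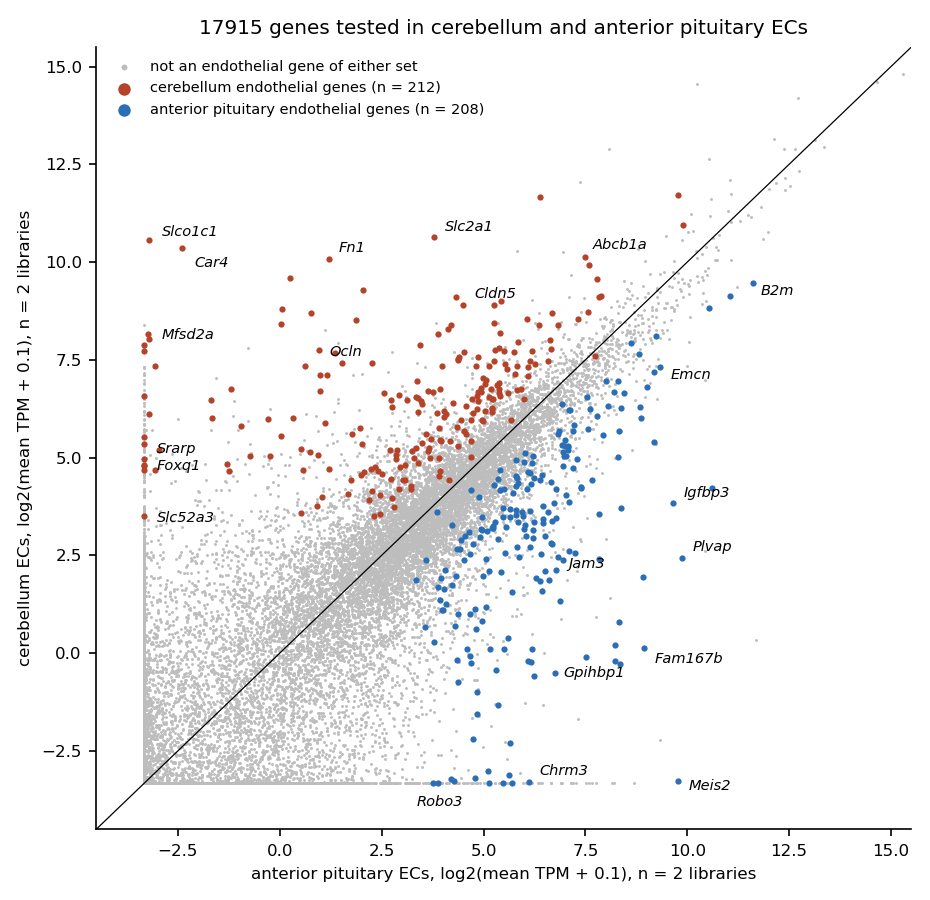
Mean level of each of the 17915 genes tested in anterior pituitary ECs (x axis) and cerebellum ECs (y axis), as log2(mean TPM + 0.1) over 2 libraries each, with the line of equal levels. Of the 212 cerebellum endothelial genes, 211 lie above the line (the exception is Lamb2, whose fold change rests on counts), and the 208 anterior pituitary endothelial genes lie below it, from genes close to the line to genes at the edge, which had no or almost no reads in the other tissue.

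The sets were of similar size. Of the 212 cerebellum endothelial genes, 103 were still at 10 TPM or more in both anterior pituitary libraries, 27 were under 1 TPM in both, and 10 had no count there. Of the 208 anterior pituitary endothelial genes, 83 were at 10 TPM or more in both cerebellum libraries, 20 under 1 TPM in both, and 5 had no count. The levels of the 2 tissues did not overlap for 205 of 212 and 205 of 208 genes, where over all genes 19.7% and 21.4% did not overlap in the same directions, a count that the choice of the genes fixes in large part. The cerebellum set held 4.44% and 4.04% of all TPM in the cerebellum libraries and 0.681% and 0.830% in the anterior pituitary libraries. The anterior pituitary set held 3.05% and 3.57% in its own libraries and 0.674% and 0.587% in those of cerebellum. All 212 genes of the cerebellum set were protein coding, and 202 of the anterior pituitary set were.

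Among the cerebellum endothelial genes, 6 of the 15 with the largest log2 fold changes were carriers of small molecules. Slco1c1, the carrier of thyroid hormone and of organic anions at the brain capillary, was at 1679.9 and 1345 TPM in cerebellum ECs and at 0 and 0.0162 TPM in anterior pituitary ECs. With 1 to 3 counts in anterior pituitary, its ratio of counts was 280000, with a 95% counting interval of 50000 to 12000000 (edgeR adjusted p = 1.44e-08). The lipid transporter Mfsd2a, which carries lysophospholipids and restrains transcytosis, was at 164 and 364 TPM in cerebellum ECs and 0 and 0.0176 TPM in anterior pituitary ECs, a ratio of 34000 (interval 6000 to 1400000, adjusted p = 6.02e-07). Car4, a carbonic anhydrase held on the cell surface, was at 1482 and 1147 TPM in cerebellum ECs and 0 and 0.179 TPM in anterior pituitary ECs, with a ratio of 18000 (interval 6000 to 86000). These intervals, and all such bounds here, cover counting error only. For 10 of the 212 cerebellum endothelial genes both anterior pituitary libraries were at 0, so that the difference is a lower bound set by 3 counts over the group, as it is for genes outside this set given below with such a bound. Slc38a5, a glutamine and serine carrier, was at 68.7 and 122 TPM in cerebellum ECs and 0 in anterior pituitary ECs and thus at least 5400-fold higher. Foxq1, a forkhead transcription factor, was at 29.2 and 22.1 TPM and at least 4200-fold higher. The peptidoglycan receptor Pglyrp1 (176 and 299 TPM) was at least 2800-fold higher, the butyrylcholinesterase gene Bche (33.0 and 22.2 TPM) at least 2800-fold, Slc7a3, a carrier of cationic amino acids (29.5 and 52.2 TPM), at least 1100-fold, and the riboflavin carrier Slc52a3 (10.1 and 12.5 TPM) at least 860-fold. Other genes of this kind were the sphingolipid desaturase Degs2, the estrogen receptor co-factor Srarp (44.3 and 48.1 TPM, at least 1200-fold) and the chemokine Ccl21a (205 and 219.5 TPM, at least 4100-fold), whose near-identical copies make the assignment of its reads uncertain. Ddc, which decarboxylates L-DOPA, was at 193 and 133 TPM in cerebellum ECs and 0.0391 and 0 TPM in anterior pituitary ECs, a ratio of 12000 (interval 2100 to 490000). Slc35f2 and the secreted guidance protein Sema3c had ratios of 16000 (interval 2700 to 620000) and 15000 (interval 5000 to 72000).

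Transporters of the barrier were mostly higher in cerebellum ECs. Of 25 tested, 22 were higher in cerebellum ECs and 1 in anterior pituitary ECs, with a median log2 fold change of 4.60. The calls of 17 of the 22 held throughout. The glucose transporter Slc2a1 (Glut1) was at 1578 and 1625 TPM in cerebellum ECs and 10.8 and 16.7 TPM in anterior pituitary ECs (log2 fold change 6.92 ± 0.42, edgeR adjusted p = 1.43e-06). Slco1a4, a carrier of bile acids and steroids with close paralogs, was at 557 and 698 TPM in cerebellum ECs and 7.12 and 0.859 TPM in anterior pituitary ECs (log2 fold change 8.88 ± 0.60, edgeR adjusted p = 2.65e-06). The organic anion carrier Slc22a8 was at 158 and 168 TPM in cerebellum ECs and 1.36 and 1.51 TPM in anterior pituitary ECs (log2 fold change 7.0 ± 0.60, edgeR adjusted p = 1.55e-05). Carriers of amino acids were among those called. The large neutral amino acid carrier Slc7a5 was at 254 and 375 TPM in cerebellum ECs and 23.2 and 11.5 TPM in anterior pituitary ECs (log2 fold change 4.03 ± 1.02, edgeR adjusted p = 0.0377), and Slc7a1, the carrier of cationic amino acids, at 65.0 and 100.5 TPM in cerebellum ECs and 4.10 and 18.1 TPM in anterior pituitary ECs (log2 fold change 4.22 ± 0.45, edgeR adjusted p = 7.59e-05, and 3.08 with an offset for gene length). The call of Slc7a5 was lost in 5 of 14 alternatives, among them the offset for gene length, a fit of the 6 WT libraries and leaving out either anterior pituitary library, with an adjusted p of up to 0.168. The taurine carrier Slc6a6 was at 397 and 269.9 TPM in cerebellum ECs and 18.8 and 17.9 TPM in anterior pituitary ECs (log2 fold change 4.00 ± 0.32, edgeR adjusted p = 1.02e-05). Slc16a1 (Mct1), which moves lactate and ketone bodies, was at 165 and 309 TPM in cerebellum ECs and 7.86 and 13.6 TPM in anterior pituitary ECs (log2 fold change 4.51 ± 0.61, edgeR adjusted p = 0.000527), and the zinc importer Slc39a10 at 597 and 497 TPM in cerebellum ECs and 28.4 and 11.4 TPM in anterior pituitary ECs (log2 fold change 4.90 ± 0.33, edgeR adjusted p = 2.66e-06). With the offset the log2 fold change of Slco1a4 was 7.37. The exception was Slc29a1, an equilibrative nucleoside transporter, at 81.3 and 94.1 TPM in anterior pituitary ECs and 6.82 and 13.2 TPM in cerebellum ECs (log2 fold change -3.86 ± 0.73, edgeR adjusted p = 0.00650). That call was lost with the offset for gene length (log2 fold change -2.99) and in limma on log2 TPM, with an adjusted p of up to 0.194. Slc3a2, the heavy chain that partners Slc7a5, did not pass the test, at 1906 and 1123 TPM in cerebellum ECs and 843 and 1029.7 TPM in anterior pituitary ECs (log2 fold change 0.71 ± 0.25). Slc22a8, Slc7a5, Slc7a1 and Slc16a1 were named here after their values were seen. Over the whole table, 32 of 278 genes with a symbol of the Slc or Slco families were higher in cerebellum ECs and 4 in anterior pituitary ECs. Over all genes tested the shares were 3.0% and 2.26%. This count was also made after the values were seen.

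The efflux pumps were divided. Of 12 ABC transporters tested, 4 were higher in cerebellum ECs and 1 in anterior pituitary ECs, with a median of 0.05, and 2 of the 4 and the 1 held throughout. Abcb1a (P-glycoprotein) was at 1299 and 924 TPM in cerebellum ECs and 186 and 173 TPM in anterior pituitary ECs, where the groups do not overlap (log2 fold change 4.14 ± 0.38, edgeR adjusted p = 2.99e-05). This call was lost with an offset for gene length, at a log2 fold change of 2.70, and in limma on log2 TPM, with an adjusted p of up to 0.178. Abcc4, which exports organic anions and cyclic nucleotides, was at 40.7 and 40.2 TPM in cerebellum ECs and 5.07 and 2.89 TPM in anterior pituitary ECs (log2 fold change 3.41 ± 0.33, edgeR adjusted p = 4.30e-05). Abcg2, the breast cancer resistance protein and a main pump of the brain capillary, was abundant in both, at 349 and 248 TPM in cerebellum ECs and 406 and 542 TPM in anterior pituitary ECs, and did not pass the test (log2 fold change -0.52 ± 0.25, adjusted p = 0.344). Abca1, which loads cholesterol onto apolipoproteins, was higher in anterior pituitary ECs, at 31.7 and 42.6 TPM in anterior pituitary ECs and 6.82 and 11.2 TPM in cerebellum ECs (log2 fold change -1.98 ± 0.31, edgeR adjusted p = 0.00156).

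Tight junction genes were called in both directions. Of 18 tested, 7 were higher in cerebellum ECs, 1 in anterior pituitary ECs (9 and 2 in DESeq2), and the median was 1.22. The calls of 3 of the 7 and of the 1 held throughout. Cldn5, the main claudin of brain ECs, was at 453 and 511 TPM in cerebellum ECs and 23.4 and 21.9 TPM in anterior pituitary ECs, so that it was present in all 4 libraries and higher in cerebellum (log2 fold change 4.58 ± 0.51, edgeR adjusted p = 0.000110). Ocln (occludin), a transmembrane protein of the junction, was at 206 and 223 TPM in cerebellum ECs and 0.789 and 2.91 TPM in anterior pituitary ECs (log2 fold change 6.58 ± 0.88, edgeR adjusted p = 0.000471). Lsr (angulin-1), a protein of the corners where 3 cells meet, was at 109 and 68.4 TPM in cerebellum ECs and 0.419 and 0 TPM in anterior pituitary ECs (log2 fold change 8.97 ± 1.18, edgeR adjusted p = 0.000421, and 8.34 with an offset for gene length). The cytoplasmic scaffold Tjp1 (ZO-1) was at 329 and 337 TPM in cerebellum ECs and 86.3 and 139 TPM in anterior pituitary ECs (log2 fold change 1.55 ± 0.25, edgeR adjusted p = 0.00204), and cingulin-like Cgnl1 at 104 and 84.2 TPM in cerebellum ECs and 36.4 and 33.5 TPM in anterior pituitary ECs (log2 fold change 1.44 ± 0.34, edgeR adjusted p = 0.0257), with an adjusted p of 0.107 without anterior pituitary EC replicate 1 and 0.101 without anterior pituitary EC replicate 2. Jam3, a junctional adhesion molecule, went the other way, at 103 and 126 TPM in anterior pituitary ECs and 5.83 and 4.90 TPM in cerebellum ECs (log2 fold change -4.31 ± 0.91, edgeR adjusted p = 0.0135). Esam, an adhesion molecule of EC junctions, was among the most abundant of the list in both tissues, at 1478 and 1632 TPM in cerebellum ECs and 973 and 2225 TPM in anterior pituitary ECs (log2 fold change 0.42 ± 0.25, adjusted p = 0.428). The calls of Tjp1 and Cgnl1 were lost with an offset for gene length and in limma on log2 TPM, with an adjusted p of up to 0.138 and 0.107 over all alternatives, that of Cgnl1 also in a fit of the 6 WT libraries.

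Wnt signaling was traced from receptors to targets. Of 15 receptors and co-factors, 4 were higher in cerebellum ECs and 1 in anterior pituitary ECs, with a median of -0.14, and 2 of the 4 calls higher in cerebellum ECs held throughout. The receptor Fzd6 was at 69.8 and 56.2 TPM in cerebellum ECs and 0.647 and 0.797 TPM in anterior pituitary ECs (log2 fold change 6.04 ± 0.51, edgeR adjusted p = 1.36e-05). Adgra2 (Gpr124) and Reck, which together present Wnt7a and Wnt7b to their receptor, were at 32.2 and 21.7 TPM and 12.9 and 10.7 TPM in cerebellum ECs and 6.43 and 3.56 TPM and 1.36 and 1.32 TPM in anterior pituitary ECs (edgeR log2 fold changes 3.50 ± 0.32, adjusted p = 2.77e-05, and 3.30 ± 0.30, adjusted p = 2.78e-05). Fzd4, the Norrin receptor, was at 22.1 and 20.1 TPM in cerebellum ECs and 35.2 and 40.4 TPM in anterior pituitary ECs and did not pass the test (log2 fold change -0.80 ± 0.30), nor did Lrp5, Ctnnb1 or Apc. Tspan12, the Norrin co-receptor, was called higher in anterior pituitary ECs, at 152 and 218 TPM in anterior pituitary ECs and 79.3 and 107 TPM in cerebellum ECs (log2 fold change -1.26 ± 0.27, edgeR adjusted p = 0.0162), but lost the call in 8 of 14 alternatives, with an adjusted p of 0.185 without cerebellum EC replicate 1 and 0.0550 without anterior pituitary EC replicate 1 and 0.0782 without anterior pituitary EC replicate 2. The Wnt co-receptor Lrp6 was at 49.7 and 64.9 TPM in cerebellum ECs and 33.0 and 38.2 TPM in anterior pituitary ECs (log2 fold change 1.37 ± 0.29, edgeR adjusted p = 0.0142), with an adjusted p of 0.149 without anterior pituitary EC replicate 1. Its call was also lost with an offset for gene length and in limma on log2 TPM, with an adjusted p of up to 0.543, and that of Adgra2 in limma, with one of up to 0.0720. With the offset for gene length the log2 fold change of Adgra2 was 2.47.

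Further down the pathway most called genes were higher in cerebellum ECs. Of 15 feedback and target genes, 8 were higher in cerebellum ECs and 1 in anterior pituitary ECs, with a median of 4.31, and 5 of the 8 calls higher in cerebellum ECs held throughout. Only 3 of the 8 were cerebellum endothelial genes. Apcdd1, an inhibitor that Wnt signaling induces, was at 166 and 158 TPM in cerebellum ECs and 23.2 and 32.7 TPM in anterior pituitary ECs, so that some of it was present in both tissues (log2 fold change 3.14 ± 0.32, edgeR adjusted p = 5.16e-05). The feedback inhibitor Nkd1 was at 27.5 and 23.2 TPM in cerebellum ECs and 0.0393 and 0 TPM in anterior pituitary ECs, a ratio of 3400 (interval 940 to 29000, adjusted p = 3.45e-05). Notum, which removes the lipid from Wnt ligands, was at 70.9 and 35.1 TPM in cerebellum ECs and 0 in both anterior pituitary libraries, at least 1500-fold higher, and Tnfrsf19 (Troy) was at 29.3 and 44.4 TPM and at least 5100-fold higher. Axin2, a common readout of the pathway, was at 30.2 and 41.5 TPM in cerebellum ECs and 3.10 and 0.0474 TPM in anterior pituitary ECs (log2 fold change 4.31 ± 1.07, edgeR adjusted p = 0.0344), and in the GFP-negative cells of cerebellum it was at 19.6 and 2.89 TPM. Of 4 TCF/LEF factors tested, the nuclear partners of beta-catenin, 2 were higher in cerebellum ECs, 1 of them a cerebellum endothelial gene. Lef1 was at 156 and 119.7 TPM in cerebellum ECs and 0 and 4.27 TPM in anterior pituitary ECs (log2 fold change 7.11 ± 1.39, edgeR adjusted p = 0.00799) and Tcf7 at 26.2 and 23.9 TPM in cerebellum ECs and 0 and 0.203 TPM in anterior pituitary ECs (log2 fold change 8.93 ± 1.16, edgeR adjusted p = 0.000392). Tcf7l1 and Tcf7l2 did not pass the test, with levels of 3.71 and 4.80 TPM and 5.21 and 7.12 TPM in cerebellum ECs and 10.2 and 19.8 TPM and 5.27 and 22 TPM in anterior pituitary ECs. Bambi, a BMP pseudoreceptor, was called in the other direction, at 9.04 and 11.5 TPM in anterior pituitary ECs and 4.39 and 3.25 TPM in cerebellum ECs (log2 fold change -1.36 ± 0.33, edgeR adjusted p = 0.0322), but lost that call in 10 of 14 alternatives, with an adjusted p of 0.162 without cerebellum EC replicate 1 and 0.254 without cerebellum EC replicate 2 and 0.105 without anterior pituitary EC replicate 1 and 0.200 without anterior pituitary EC replicate 2. The calls of Lef1 and Axin2 were lost when only the 4 libraries compared, or only the 6 WT libraries, gave the spread, and that of Axin2 also with an offset for gene length, with an adjusted p of up to 0.0769 and 0.169. With the offset, the log2 fold changes of Lef1 and Tcf7 were 6.11 and 7.76.

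Of 17 transcription factors linked to brain endothelium, Lef1 among them, 8 were higher in cerebellum ECs, 0 in anterior pituitary ECs and 9 did not pass the test, with a median of 2.1 (9 and 0 in DESeq2, 10 and 0 at an unadjusted edgeR p under 0.05). The calls of 5 of the 8 held throughout, and 3 of the 8 were cerebellum endothelial genes. Foxf2, a forkhead factor, was at 40.9 and 37.2 TPM in cerebellum ECs and 0 in anterior pituitary ECs (at least 1900-fold), and it was at 6.91 and 7.51 TPM in posterior pituitary ECs. Foxc1 was at 21.3 and 26.2 TPM in cerebellum ECs and 5.06 and 6.14 TPM in anterior pituitary ECs (log2 fold change 2.12 ± 0.34, edgeR adjusted p = 0.00205). Outside this list, Zic2, a zinc finger factor that cerebellar neurons also use, was at 38.8 and 31.2 TPM in cerebellum ECs against 38.2 and 24.3 TPM in the GFP-negative cells of cerebellum and 0 in anterior pituitary ECs (at least 2000-fold). The Sox factors of ECs did not pass the test: Sox17 was at 42.2 and 27.4 TPM in cerebellum ECs and 10.2 and 20.7 TPM in anterior pituitary ECs (log2 fold change 2.1 ± 0.64, adjusted p = 0.0942) and Sox7 at 29.4 and 13.2 TPM in cerebellum ECs and 15.5 and 28.0 TPM in anterior pituitary ECs (log2 fold change 0.07 ± 0.33). The call of Foxc1 was lost in limma on log2(TPM + 0.1), with an adjusted p of 0.0548.

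**Figure D2:**
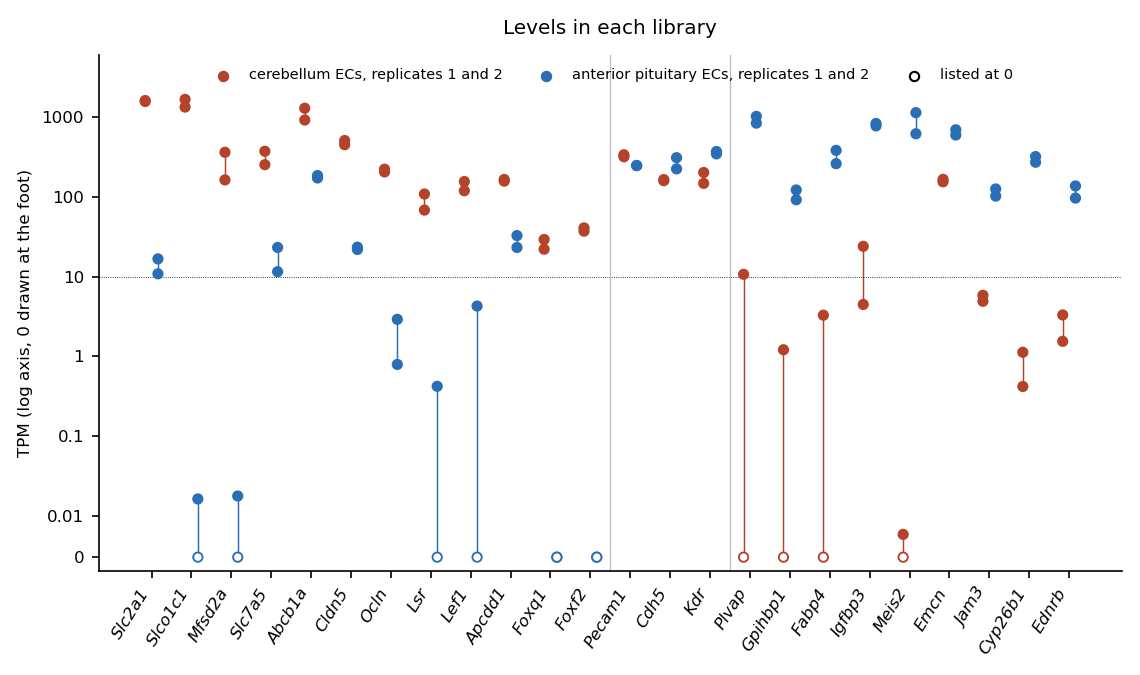
Level in TPM (log axis) of 24 genes in each of the 4 libraries, with 2 points per tissue and an open point at the foot where a library is listed at 0. The 12 barrier and Wnt genes on the left are higher in both cerebellum libraries, and the 9 genes on the right in both anterior pituitary libraries. The 3 general endothelial genes in the middle did not pass the test. Of these, Pecam1 is higher in both cerebellum libraries and Kdr in both anterior pituitary libraries. The dotted line marks 10 TPM.

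Genes common to all ECs were called in both directions. Of 24 tested, 4 were higher in cerebellum ECs, 2 in anterior pituitary ECs and 18 did not pass the test, with a median of -0.20, and 15 had an unadjusted edgeR p under 0.05. The calls of 2 of the 4 and of both held throughout. Pecam1 gave a log2 fold change of -0.01 ± 0.24 and Kdr (Vegfr2), the main VEGF receptor, -0.96 ± 0.32 (adjusted p = 0.129), with 148 and 203 TPM in cerebellum ECs and 347 and 372 TPM in anterior pituitary ECs. Flt1, the decoy VEGF receptor, was at 1003 and 507 TPM in cerebellum ECs and 209.7 and 232 TPM in anterior pituitary ECs (log2 fold change 2.22 ± 0.31, edgeR adjusted p = 0.000636). Nos3, the endothelial nitric oxide synthase, was at 37.2 and 35.6 TPM in cerebellum ECs and 5.38 and 7.55 TPM in anterior pituitary ECs (log2 fold change 2.67 ± 0.26, edgeR adjusted p = 3.78e-05), and the tyrosine phosphatase Ptprb at 185 and 141 TPM in cerebellum ECs and 60.5 and 52.3 TPM in anterior pituitary ECs (log2 fold change 2.07 ± 0.31, edgeR adjusted p = 0.00127). Emcn, a sialomucin of capillaries and veins, was at 599 and 697 TPM in anterior pituitary ECs and 166 and 155 TPM in cerebellum ECs (log2 fold change -1.97 ± 0.27, edgeR adjusted p = 0.000679), and Mmrn2, a matrix protein that binds VEGF, at 108 and 146 TPM in anterior pituitary ECs and 44.2 and 34.6 TPM in cerebellum ECs (log2 fold change -1.59 ± 0.23, edgeR adjusted p = 0.00107). Gata2 stood at the threshold, at 31.0 and 18.9 TPM in cerebellum ECs and 13.5 and 17.1 TPM in anterior pituitary ECs (log2 fold change 1.0 ± 0.26, edgeR adjusted p = 0.0396), and lost the call in 13 of 14 alternatives, with an adjusted p of 0.407 without cerebellum EC replicate 1 and 0.107 without cerebellum EC replicate 2 and 0.294 without anterior pituitary EC replicate 1 and 0.199 without anterior pituitary EC replicate 2. The call of Ptprb was lost in limma on log2 TPM, with an adjusted p of up to 0.0562.

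The 15 anterior pituitary endothelial genes with the largest log2 fold changes included receptors, transcription factors, secreted proteins and predicted genes. Meis2, a homeodomain transcription factor, was at 621 and 1144 TPM in anterior pituitary ECs and 0 and 0.00580 TPM in cerebellum ECs, with a ratio of 46000 (interval 8300 to 1900000, adjusted p = 8.08e-05). The muscarinic acetylcholine receptor Chrm3 was at 57.8 and 79.7 TPM in anterior pituitary ECs and 0.00455 and 0 TPM in cerebellum ECs, a ratio of 15000 (interval 2600 to 580000, adjusted p = 3.73e-06). Robo3, a receptor of the Roundabout family, was at 11.0 and 16 TPM in anterior pituitary ECs and 0 in both cerebellum libraries, at least 1700-fold. These genes were nearly or wholly silent in cerebellum ECs. Cyp26b1, which degrades retinoic acid, was at 273 and 321 TPM in anterior pituitary ECs and 1.12 and 0.417 TPM in cerebellum ECs, and in the parenchyma the order was the reverse, with 0.599 and 0.132 TPM in GFP-negative cells of anterior pituitary and 8.25 and 4.81 TPM in those of cerebellum (log2 fold change -8.61 ± 0.86, edgeR adjusted p = 4.95e-05 for ECs). Fam167b, a gene of little known function, was at 456 and 524 TPM in anterior pituitary ECs and 0 and 1.98 TPM in cerebellum ECs (log2 fold change -8.93 ± 1.09, edgeR adjusted p = 0.000240). The homeobox factor Irx5 was at 10.0 and 26.3 TPM in anterior pituitary ECs and 0 and 0.0142 TPM in cerebellum ECs, a ratio of 2000 (interval 360 to 81000). The keratin Krt80, the vesicular monoamine transporter Slc18a2 and the neurotrophin Ntf3 were at 18.5 and 20.3, 29.2 and 26.3 and 64.7 and 35.1 TPM in anterior pituitary ECs and at most 0.208 TPM in either cerebellum library. Sema3d, a secreted semaphorin, was at 36.2 and 32.8 TPM in anterior pituitary ECs and 0 and 0.0494 TPM in cerebellum ECs, a ratio of 2400 (interval 820 to 12000). Sema5b was at 17.4 and 86.1 TPM and 0 in cerebellum ECs (at least 460-fold, adjusted p = 0.0294), with an adjusted p of 0.0900 without cerebellum EC replicate 1 and 0.0841 without cerebellum EC replicate 2 and 0.0502 without anterior pituitary EC replicate 2. The predicted genes Gm11730 and Gm35853 were at 0 in both cerebellum libraries and at 39.4 and 49.7 TPM and 10.9 and 18.3 TPM in anterior pituitary ECs (at least 700-fold and 720-fold).

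Genes of the fenestrated capillary were led by Plvap, which forms the diaphragm of fenestrae and caveolae. Plvap was at 845 and 1028 TPM in anterior pituitary ECs and 0 and 10.7 TPM in cerebellum ECs, so that it was abundant in both anterior pituitary libraries and absent or low in cerebellum (log2 fold change -7.43 ± 1.85, edgeR adjusted p = 0.0343). Plvap was not called when the 4 libraries compared, or the 6 WT libraries, alone gave the spread, with an adjusted p of up to 0.138. Of 11 genes of fenestrae and caveolae tested, 3 were higher in anterior pituitary ECs and 1 in cerebellum ECs, with a median of -0.05, and 2 of the 3 calls higher in anterior pituitary ECs held throughout. Ehd4, which shapes endocytic membranes, was at 199.8 and 429 TPM in anterior pituitary ECs and 32.7 and 32.3 TPM in cerebellum ECs (log2 fold change -3.59 ± 0.27, edgeR adjusted p = 5.55e-06), and the caveolar coat protein Cavin3 at 129 and 129.9 TPM in anterior pituitary ECs and 19.9 and 12.7 TPM in cerebellum ECs (log2 fold change -2.61 ± 0.27, edgeR adjusted p = 7.31e-05). Cav1, the structural protein of caveolae, was higher in cerebellum ECs, at 154 and 181 TPM in cerebellum ECs and 68.4 and 24.1 TPM in anterior pituitary ECs (log2 fold change 3.11 ± 0.31, edgeR adjusted p = 4.99e-05). Its partners Cav2, Cavin1, Cavin2, Ehd2 and Pacsin2 did not pass the test, and Cavin1 was at 106 and 105 TPM in cerebellum ECs and 63.4 and 99.3 TPM in anterior pituitary ECs. The call of Cav1 was lost in limma on log2 TPM, with an adjusted p of up to 0.0562, and with an offset for gene length its log2 fold change was 1.92.

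Lipid handling went in both directions. Of 13 genes, 5 were higher in either tissue, of which 2 in each direction held throughout, and all 4 that were endothelial genes were those of anterior pituitary. Gpihbp1, which holds lipoprotein lipase on the capillary wall, was at 92.2 and 122 TPM in anterior pituitary ECs and 0 and 1.21 TPM in cerebellum ECs (log2 fold change -6.58 ± 1.11, edgeR adjusted p = 0.00277). The fatty acid binding protein Fabp4 was at 385 and 262 TPM in anterior pituitary ECs and 0 and 3.28 TPM in cerebellum ECs (log2 fold change -8.15 ± 1.21, edgeR adjusted p = 0.00113), and Scarb1, the receptor of high-density lipoprotein, at 172 and 312 TPM in anterior pituitary ECs and 42.4 and 53.3 TPM in cerebellum ECs (log2 fold change -2.27 ± 0.27, edgeR adjusted p = 0.000213). With an offset for gene length the log2 fold change of Fabp4 was -7.45. For each of these 3 genes both anterior pituitary libraries were above both cerebellum libraries. The lipoprotein receptor Lrp8 was higher in cerebellum ECs, at 27.8 and 99.7 TPM in cerebellum ECs and 0.154 and 0 TPM in anterior pituitary ECs (log2 fold change 8.71 ± 1.47, edgeR adjusted p = 0.00287). Lrp1 was at 53.4 and 16 TPM in cerebellum ECs and 3.18 and 4.34 TPM in anterior pituitary ECs (log2 fold change 2.79 ± 0.42, edgeR adjusted p = 0.00132), and it was at 371 and 164 TPM in GFP-negative cells of cerebellum. In limma on log2 TPM the call of Lrp1 was lost, with an adjusted p of up to 0.0916, and in a fit of the 4 libraries compared that of Gpihbp1, with one of 0.0673.

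Genes of growth factor and guidance signaling were called in both directions. Of 22 genes of VEGF, Tie and apelin signaling, 4 were higher in anterior pituitary ECs and 2 in cerebellum ECs, Flt1 (above) among the latter (median -0.82), and 2 of the 4 and 1 of the 2 held throughout. Nrp2, a co-receptor of VEGF-C and semaphorins, was at 50.8 and 60.0 TPM in anterior pituitary ECs and 12.1 and 10.8 TPM in cerebellum ECs (log2 fold change -2.21 ± 0.26, edgeR adjusted p = 0.000169). Flt4 (Vegfr3) was at 25.3 and 37.0 TPM in anterior pituitary ECs and 10.6 and 11.4 TPM in cerebellum ECs (log2 fold change -1.46 ± 0.32, edgeR adjusted p = 0.0165), with an adjusted p of 0.0960 without cerebellum EC replicate 1 and 0.0935 without anterior pituitary EC replicate 2. Ramp3, which modifies the adrenomedullin receptor, was at 30.2 and 33.0 TPM in anterior pituitary ECs and 1.23 and 2.72 TPM in cerebellum ECs (log2 fold change -4.01 ± 0.64, edgeR adjusted p = 0.00186), while its relative Ramp2 was at 324 and 389 TPM in cerebellum ECs and 267 and 282 TPM in anterior pituitary ECs and did not pass the test. Of 25 guidance genes, 6 were higher in anterior pituitary ECs and 4 in cerebellum ECs (median -0.68), of which 2 and 1 held throughout. The netrin receptor Unc5b was at 11.2 and 10.6 TPM in cerebellum ECs and 1.92 and 3.48 TPM in anterior pituitary ECs (log2 fold change 2.27 ± 0.41, edgeR adjusted p = 0.00484), and the ephrin receptor Epha4 at 34.0 and 18.0 TPM in cerebellum ECs and 13.9 and 5.60 TPM in anterior pituitary ECs (log2 fold change 2.12 ± 0.38, edgeR adjusted p = 0.00417). The ephrins Efnb1 and Efnb2 were at 16.8 and 34.1 TPM and 21.4 and 53.7 TPM in anterior pituitary ECs and 2.27 and 1.52 TPM and 6.85 and 11.4 TPM in cerebellum ECs (edgeR log2 fold changes -3.47 ± 0.39, adjusted p = 0.000134, and -1.86 ± 0.27, adjusted p = 0.000819). Ednrb, the endothelin B receptor, was at 96.9 and 137 TPM in anterior pituitary ECs and 3.30 and 1.54 TPM in cerebellum ECs (log2 fold change -5.55 ± 0.74, edgeR adjusted p = 0.000471), and its ligand gene Edn1 was higher in cerebellum ECs, at 45.1 and 27.9 TPM in cerebellum ECs and 0.0560 and 0 TPM in anterior pituitary ECs (log2 fold change 10.38 ± 1.09, edgeR adjusted p = 7.46e-05, and 9.73 with an offset for gene length). Ednrb was named after its values were seen. The calls of Flt4, Efnb2, Unc5b and Epha4 were lost in limma on log2 TPM, those of Flt4 and Epha4 also with an offset for gene length and that of Flt4 in a fit of the 6 WT libraries, with an adjusted p of up to 0.115, 0.102, 0.0990 and 0.565 over all alternatives.

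Of 10 genes of the IGF system, 3 were higher in anterior pituitary ECs, 1 in cerebellum ECs and 6 did not pass the test, with a median of -1.81. All 4 calls held throughout. The receptor Igf1r was at 99.5 and 78.0 TPM in cerebellum ECs and 11.5 and 5.69 TPM in anterior pituitary ECs (log2 fold change 4.21 ± 0.27, edgeR adjusted p = 1.99e-06, and 3.41 with an offset for gene length). The receptors Igf2r and Insr did not pass the test, with Insr at 34.1 and 25.4 TPM in cerebellum ECs and 45.4 and 55.6 TPM in anterior pituitary ECs. The binding proteins Igfbp3, Igfbp4 and Igfbp5, which hold IGF in the extracellular space, were higher in anterior pituitary ECs. Igfbp3 was at 781 and 837 TPM in anterior pituitary ECs and 4.47 and 24 TPM in cerebellum ECs (log2 fold change -5.62 ± 1.09, edgeR adjusted p = 0.00774) and Igfbp4 at 118 and 173 TPM in anterior pituitary ECs and 34.7 and 18.3 TPM in cerebellum ECs (log2 fold change -2.68 ± 0.29, edgeR adjusted p = 7.96e-05). Igfbp5 was at 192 and 226 TPM in anterior pituitary ECs and 0.565 and 0.684 TPM in cerebellum ECs (log2 fold change -8.60 ± 1.02, edgeR adjusted p = 0.000185), and it was at 129 and 148 TPM in the GFP-negative cells of anterior pituitary. Igfbp7, the most abundant of the family, was at 1012 and 1468 TPM in cerebellum ECs and 1081 and 1283 TPM in anterior pituitary ECs and did not pass the test (log2 fold change -0.11 ± 0.25). Neither did Igf1, Igf2 and the binding protein Igfbp6.

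Of 19 genes of MHC class I and the interferon response, 8 were higher in anterior pituitary ECs, 1 in cerebellum ECs (8 and 2 in DESeq2) and 10 did not pass the test, with a median of -0.91. The calls of 3 of the 8 held throughout. B2m, the light chain of class I molecules, was at 3124 and 3092 TPM in anterior pituitary ECs and 875 and 546 TPM in cerebellum ECs (log2 fold change -2.21 ± 0.31, edgeR adjusted p = 0.000797). The heavy chains H2-D1 and H2-K1, whose close copies make the split of their reads uncertain, were at 2141 and 2089 TPM and 574 and 467 TPM in anterior pituitary ECs and 696 and 427 TPM and 139 and 82.8 TPM in cerebellum ECs (edgeR log2 fold changes -1.88 ± 0.29, adjusted p = 0.00153, and -2.15 ± 0.29, adjusted p = 0.000471). For all 3 genes the tissues did not overlap, and both tissues expressed them. Irf1, a factor of the interferon response, was at 137 and 106 TPM in anterior pituitary ECs and 39.3 and 42.2 TPM in cerebellum ECs (log2 fold change -1.63 ± 0.33, edgeR adjusted p = 0.0113), with an adjusted p of 0.0520 without cerebellum EC replicate 2 and 0.0742 without anterior pituitary EC replicate 1. Bst2 (tetherin) was at 125 and 167 TPM in anterior pituitary ECs and 37.6 and 64.3 TPM in cerebellum ECs (log2 fold change -1.59 ± 0.33, edgeR adjusted p = 0.0126), with an adjusted p of 0.138 without cerebellum EC replicate 1 and 0.0614 without anterior pituitary EC replicate 2. The interferon-induced genes Ifit1, Ifit3 and Isg15 did not pass the test, nor did Tap1, Tapbp and Psmb9 of antigen presentation. The gene higher in cerebellum ECs was Ly6c1, a surface marker of brain ECs with close paralogs, at 3322 and 3440.4 TPM in cerebellum ECs and 777 and 959.5 TPM in anterior pituitary ECs (log2 fold change 1.98 ± 0.29, edgeR adjusted p = 0.00111). Counted over the table after the values were seen, 8 of 29 H2- genes and 4 of 8 Gimap genes were higher in anterior pituitary ECs and 0 in cerebellum ECs. Over all genes tested these shares were 2.26% and 3.0%. Other families were counted too: 4 of 5 Zic, 4 of 24 Fox and 1 of 16 Sox genes were higher in cerebellum ECs and 0 in anterior pituitary ECs. Of 4 Irx genes, 2 were higher in anterior pituitary ECs and 0 in cerebellum ECs. The 8 H2- genes include H2-Aa and H2-Ab1, which are MHC class II genes of antigen-presenting cells, and the call of H2-Ab1 was lost in 4 of 14 alternatives. Bst2 was also not called with an offset for gene length, in limma on log2 TPM or in fits of the 4 libraries compared or the 6 WT libraries, with an adjusted p of up to 0.152, nor was Ly6c1 in limma on log2(TPM + 1), with one of 0.0528.

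Genes of larger vessels and of their walls were described by 3 lists. Of 21 Notch and arterial genes, 8 were higher in cerebellum ECs and 1 in anterior pituitary ECs (median 1.71, and 11 and 2 in DESeq2), and of 13 venous and adhesion genes, 5 and 1 (median 4.14, and 8 and 1 in DESeq2). Of the calls higher in cerebellum ECs, 3 of the 8 and 3 of the 5 held throughout. Cerebellum endothelial genes made up 3 of the 8 and 2 of the 5. Of the 8 Notch and arterial genes higher in cerebellum ECs, 4 were called with an offset for gene length, and the calls of Alpl, Jag1, Jag2 and Sema3g were lost with it and in limma, with an adjusted p of up to 0.167, 0.328, 0.483 and 0.158. The arterial gene Gkn3 was at 63.1 and 38.9 TPM in cerebellum ECs and 0 in anterior pituitary ECs (at least 690-fold, edgeR adjusted p = 0.0148), and the Notch target Hey1 at 27.2 and 29.8 TPM in cerebellum ECs and 4.64 and 1.32 TPM in anterior pituitary ECs (log2 fold change 3.16 ± 0.56, edgeR adjusted p = 0.00411). The von Willebrand factor gene Vwf, typical of veins and large vessels, was at 51.7 and 76.7 TPM in cerebellum ECs and 0.296 and 0.137 TPM in anterior pituitary ECs (log2 fold change 9.84 ± 0.63, edgeR adjusted p = 1.88e-06, and 8.35 with an offset for gene length). Vcam1, which arrests leukocytes, was at 41.7 and 62.8 TPM in cerebellum ECs and 0 and 0.00657 TPM in anterior pituitary ECs, a ratio of 13000 (interval 2300 to 530000). Vwf and Vcam1 were thus at 0.296 TPM or less in both anterior pituitary libraries. Nr2f2 (COUP-TFII), the venous transcription factor, was at 33.5 and 29.1 TPM in anterior pituitary ECs and 10.8 and 6.85 TPM in cerebellum ECs (log2 fold change -1.66 ± 0.43, edgeR adjusted p = 0.0429), with an adjusted p of 0.221 without cerebellum EC replicate 2 and 0.224 without anterior pituitary EC replicate 1. Dll4 and Notch1 did not pass the test, with Dll4 at 34.0 and 14.6 TPM in cerebellum ECs and 25.1 and 94.1 TPM in anterior pituitary ECs. Markers of pericytes and smooth muscle are given beside these lists: of 11 tested, 5 were higher in cerebellum ECs, among them Rgs5 at 548 and 488 TPM in cerebellum ECs and 41.2 and 45.2 TPM in anterior pituitary ECs (log2 fold change 3.47 ± 0.27, edgeR adjusted p = 6.94e-06), Vtn at 335 and 279 TPM in cerebellum ECs and 2.76 and 1.39 TPM in anterior pituitary ECs (log2 fold change 7.65 ± 1.32, edgeR adjusted p = 0.00325) and Pdgfrb at 19.5 and 13.3 TPM in cerebellum ECs and 0.347 and 0.764 TPM in anterior pituitary ECs (log2 fold change 5.08 ± 0.56, edgeR adjusted p = 0.000104), and 1, the potassium channel Kcnj8, in anterior pituitary ECs, at 127 and 148 TPM in anterior pituitary ECs and 14.2 and 14.6 TPM in cerebellum ECs (log2 fold change -2.96 ± 0.40, edgeR adjusted p = 0.000587). DESeq2 called 9 and 1 of these markers, and the edgeR calls of 4 of the 5 and of the 1 held throughout. Nr2f2 was also not called with an offset for gene length, in limma on log2 TPM or in a fit of the 6 WT libraries, with an adjusted p of up to 0.224 over all alternatives, nor was Hey1 in a fit of the 4 libraries compared, with one of 0.0514.

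In the basement membrane, 5 of 21 genes were higher in cerebellum ECs and 2 in anterior pituitary ECs, with a median of -0.03, and 2 of the 5 and 0 of the 2 held throughout. Fn1 (fibronectin) was at 1218 and 962 TPM in cerebellum ECs and 3.34 and 1.05 TPM in anterior pituitary ECs (log2 fold change 8.96 ± 0.52, edgeR adjusted p = 1.33e-06) and Agrn (agrin) at 57.4 and 74.0 TPM in cerebellum ECs and 11.2 and 21.1 TPM in anterior pituitary ECs (log2 fold change 2.20 ± 0.45, edgeR adjusted p = 0.0110), with an adjusted p of 0.0659 without anterior pituitary EC replicate 1. Col15a1, a collagen of the basement membrane zone, was at 169 and 428 TPM in anterior pituitary ECs and 0.0365 and 2.05 TPM in cerebellum ECs (log2 fold change -6.67 ± 1.12, edgeR adjusted p = 0.00274), and Hspg2 (perlecan) at 121 and 132 TPM in anterior pituitary ECs and 24.6 and 40.6 TPM in cerebellum ECs (log2 fold change -2.03 ± 0.38, edgeR adjusted p = 0.00563). The laminin chain Lamb2 was at 159 and 227 TPM in cerebellum ECs and 42.7 and 380.1 TPM in anterior pituitary ECs (log2 fold change 1.29 ± 0.27, edgeR adjusted p = 0.0119), but the tissues overlap and the mean TPM was higher in anterior pituitary ECs. With an offset for gene length its log2 fold change was 0.06, and leaving out 1 library gave an adjusted p of 0.0551 without cerebellum EC replicate 1 and 0.0917 without anterior pituitary EC replicate 1 and 0.0689 without anterior pituitary EC replicate 2. Col18a1, the source of endostatin, was at 9.87 and 6.2 TPM in cerebellum ECs and 0.0523 and 0.0126 TPM in anterior pituitary ECs (log2 fold change 9.05 ± 0.88, edgeR adjusted p = 4.02e-05). The collagen IV chain Col4a1 was at 498 and 782 TPM in cerebellum ECs and 662 and 1160.3 TPM in anterior pituitary ECs and did not pass the test. Sparcl1 was at 1579.8 and 917 TPM in cerebellum ECs and 32.7 and 79.3 TPM in anterior pituitary ECs (log2 fold change 4.60 ± 0.37, edgeR adjusted p = 1.02e-05), and it was at 5586 and 1681 TPM in GFP-negative cells of cerebellum. Of 22 genes of BMP and TGF-beta signaling, 5 were higher in cerebellum ECs and 1 in anterior pituitary ECs (median 0.38), where DESeq2 called 5 and 4, and 8 and 5 had an unadjusted edgeR p under 0.05. The calls of 2 of the 5 and of the 1 held throughout. The BMP9 receptor Acvrl1 was at 152 and 88.6 TPM in cerebellum ECs and 24.8 and 57.7 TPM in anterior pituitary ECs (log2 fold change 2.03 ± 0.32, edgeR adjusted p = 0.00151), and Ltbp4, which anchors latent TGF-beta, at 123 and 199.9 TPM in cerebellum ECs and 6.15 and 25.0 TPM in anterior pituitary ECs (log2 fold change 4.05 ± 0.38, edgeR adjusted p = 3.39e-05). Inhbb, an activin subunit, was at 35.0 and 37.5 TPM in anterior pituitary ECs and 0 and 0.354 TPM in cerebellum ECs (log2 fold change -7.55 ± 1.54, edgeR adjusted p = 0.0106). In limma on log2 TPM the calls of Agrn, Acvrl1 and Lamb2 were lost, that of Lamb2 also with an offset for gene length, with an adjusted p of up to 0.0659, 0.123 and 1.0 over all alternatives. At a pseudocount of 0.1 the call of Hspg2 was lost (0.0503), at a pseudocount of 1 that of Col18a1 (0.0628), and in a fit of the 4 libraries compared that of Col15a1 (0.0598), whose log2 fold change was -7.91 with the offset for gene length.

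Of 15 iron genes, 4 were higher there and 0 in anterior pituitary ECs (median 0.46, and 5 and 0 in DESeq2, 6 and 0 at an unadjusted edgeR p under 0.05), and all 4 calls held throughout. The transferrin receptor Tfrc was at 148 and 127 TPM in cerebellum ECs and 2.63 and 1.15 TPM in anterior pituitary ECs (log2 fold change 6.42 ± 0.76, edgeR adjusted p = 0.000186) and the exporter ferroportin, Slc40a1, at 367 and 321 TPM in cerebellum ECs and 1.02 and 0.808 TPM in anterior pituitary ECs (log2 fold change 6.51 ± 0.57, edgeR adjusted p = 1.76e-05, and 8.62 with an offset for gene length). The ferritins Fth1 and Ftl1 did not pass the test. Maoa, which breaks down monoamines, was at 99.5 and 96.1 TPM in cerebellum ECs and 6.76 and 8.12 TPM in anterior pituitary ECs (log2 fold change 3.69 ± 0.40, edgeR adjusted p = 8.26e-05), one of 5 of 20 genes of drug and steroid metabolism higher in cerebellum ECs, where 1, the Cyp26b1 described above, was higher in anterior pituitary ECs (5 and 2 in DESeq2). The calls of 2 of the 5 and of the 1 held throughout, and 1 of the 5 was a cerebellum endothelial gene. Aldh1a1 was at 118 and 79.3 TPM in cerebellum ECs and 0 in anterior pituitary ECs (at least 4100-fold), and at 54.1 and 27.6 TPM in the GFP-negative cells of cerebellum. The chemokine Cxcl12 was at 489.7 and 346 TPM in cerebellum ECs and 0.389 and 2.83 TPM in anterior pituitary ECs (log2 fold change 9.32 ± 0.74, edgeR adjusted p = 9.09e-06, and 8.16 with an offset for gene length), and it and Ccl21a were the 2 of 14 chemokine genes called (median 2.43), where DESeq2 called 6, all higher in cerebellum ECs. Of 16 glycolysis genes, 3 were higher in cerebellum ECs and 1 in anterior pituitary ECs (median 0.42), and 0 of these 4 calls held throughout. Of the 3, Eno1, Pfkl and Pkm had an adjusted p of up to 0.171, 0.704 and 0.376, the last 2 also losing the call with an offset for gene length. The glycolytic regulator Pfkfb3 was at 34.2 and 47.0 TPM in anterior pituitary ECs and 10.6 and 4.29 TPM in cerebellum ECs (log2 fold change -2.05 ± 0.49, edgeR adjusted p = 0.0275), with an adjusted p of 0.133 without cerebellum EC replicate 2 and 0.0604 without anterior pituitary EC replicate 1, and it was not called in limma on log2 TPM or in fits of the 4 libraries compared or the 6 WT libraries, with an adjusted p of up to 0.133 over all alternatives.

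Scavenger receptors and flow-responsive genes were split evenly, with 3 of 15 and 2 of 12 called in either direction (medians -0.58 and -0.05). Of the 6 scavenger receptor calls 1 held throughout, and of the 4 flow-responsive calls all 4. The lectins Clec14a and Clec1a were at 47.0 and 59.3 TPM and 66.5 and 49.0 TPM in anterior pituitary ECs and 17.1 and 16.8 TPM and 10.7 and 9.53 TPM in cerebellum ECs (edgeR log2 fold changes -1.58 ± 0.28, adjusted p = 0.00391, and -3.35 ± 0.45, adjusted p = 0.000471). Timp3, a metalloproteinase inhibitor, was at 504 and 651 TPM in anterior pituitary ECs and 181 and 109 TPM in cerebellum ECs (log2 fold change -2.12 ± 0.34, edgeR adjusted p = 0.00198). Ptgs1 (Cox1), which starts prostaglandin synthesis, was at 65.1 and 71.8 TPM in anterior pituitary ECs and 0.649 and 0.890 TPM in cerebellum ECs (log2 fold change -6.96 ± 0.44, edgeR adjusted p = 1.88e-06). The flow-induced factors Klf2 and Klf4 did not pass the test. Immediate early and dissociation genes differed between the cerebellum replicates. Their sum was 1852 and 244 TPM in cerebellum and 4922 and 6344 TPM in anterior pituitary. Of 16, 2 were higher in anterior pituitary ECs with a median of -2.02, and without cerebellum EC replicate 1 it was 15 of 16 with a median of -4.40, while DESeq2 called 7 with all libraries. Fos was at 789.6 and 1238 TPM in anterior pituitary ECs and 309 and 12.2 TPM in cerebellum ECs. Of 18 cell cycle genes, Top2a alone was called, at 16.6 and 4.37 TPM in anterior pituitary ECs and 0.384 and 0.0576 TPM in cerebellum ECs (log2 fold change -5.19 ± 1.12, edgeR adjusted p = 0.0174), with an adjusted p of 0.0770 without cerebellum EC replicate 2 and 0.0917 without anterior pituitary EC replicate 1, and the median was -2.24. DESeq2 called 4 of the 18 and 7 had an unadjusted edgeR p under 0.05, all of them higher in anterior pituitary ECs. In limma on log2 TPM the calls of Clec1a and Top2a were lost, with an adjusted p of up to 0.0643 and 0.164 over all alternatives, and at a pseudocount of 0.1 that of Clec14a (0.0503). With an offset for gene length the log2 fold change of Clec1a was -2.44.

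**Figure D3:**
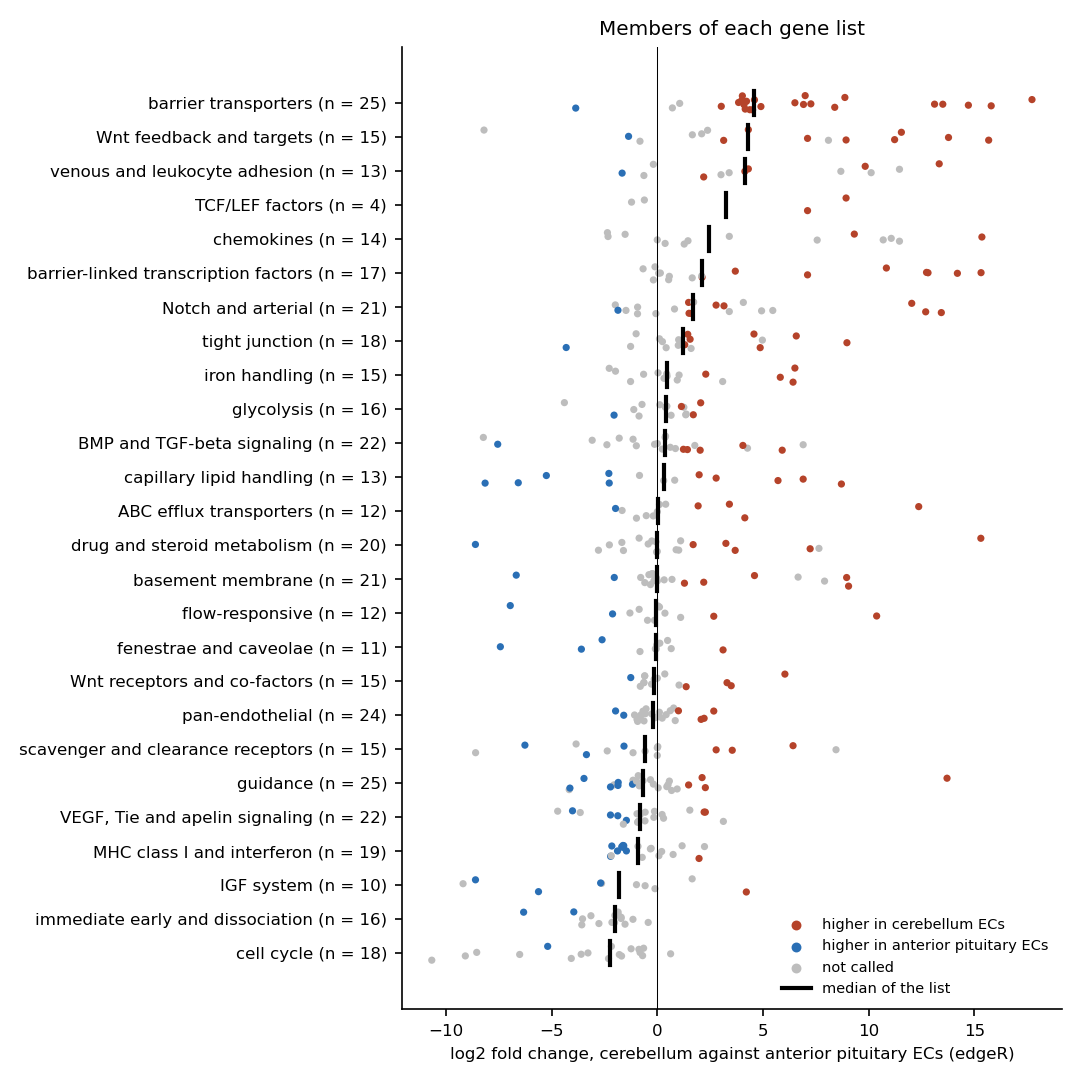
Log2 fold change of cerebellum over anterior pituitary ECs (edgeR) for the members of 26 gene lists, ordered by the median of each list (black bar), with the number of members tested. Barrier transporters and Wnt feedback genes have the highest medians, 4.60 and 4.31, and immediate early and cell cycle genes the lowest, -2.02 and -2.24. Points beyond about 10 belong to genes with few or no reads in one tissue, whose fitted value depends on the prior count.

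Markers of other cell types were called in part. Of 15 endocrine genes of the pituitary, 8 were higher in the anterior pituitary libraries and 0 in those of cerebellum (12 and 0 in DESeq2 and at an unadjusted edgeR p under 0.05), of which 6 held throughout. Gh (growth hormone) was at 3698 and 2852 TPM in anterior pituitary ECs and 0.116 and 2.23 TPM in cerebellum ECs (log2 fold change -11.13 ± 1.6, edgeR adjusted p = 0.00123), and at 3600.2 and 4639.8 TPM in the GFP-negative cells. Prl (prolactin) was at 1937 and 816 TPM in anterior pituitary ECs and 10.6 and 1.39 TPM in cerebellum ECs, and at 31239 and 45324 TPM in the GFP-negative cells, many times its level in ECs. Without cerebellum EC replicate 1, the count of endocrine genes called was 6 of 15. Of 7 markers of pituitary stem and folliculostellate cells 2 were higher in anterior pituitary, Mia and Cyp2f2, and 0 without cerebellum EC replicate 1, while S100b, Fxyd1 and Sox2, the last named after its values were seen, did not pass the test, with log2 fold changes of 6.33, 3.87 and 2.51. Of 13 markers of cerebellar neurons 2 were higher in the cerebellum libraries, Zic1 and Zic2, and of 7 of oligodendrocytes 2 (4 in DESeq2), Mbp at 32.1 and 23.7 TPM in cerebellum ECs and 0.155 and 0.0953 TPM in anterior pituitary ECs and Mobp at 6.03 and 4.92 TPM and 0 (at least 450-fold). The neuronal marker Snap25 was at 3.93 and 5.99 TPM in cerebellum ECs and 5.61 and 5.21 TPM in anterior pituitary ECs. Of 9 astrocyte markers, Glul was higher in cerebellum ECs, at 472 and 364 TPM in cerebellum ECs and 57.9 and 107 TPM in anterior pituitary ECs, and Gja1 (connexin 43) in anterior pituitary ECs, at 474 and 439.8 TPM in anterior pituitary ECs and 78.9 and 78.0 TPM in cerebellum ECs (2 and 1 in DESeq2). Of 14 markers of microglia and macrophages and 6 of fibroblasts, 0 passed in edgeR and 0 in DESeq2, and 1 and 0 had an unadjusted edgeR p under 0.05. Without cerebellum EC replicate 1, edgeR called 1 of the 6 fibroblast markers, higher in anterior pituitary ECs. The 2 of 5 erythrocyte genes called, Hbb-bs and Hba-a1, were at 43623 and 4326 TPM and 7449 and 1081 TPM in cerebellum, so that replicate 1 held most of them, and their close copies make the split of reads uncertain. Of 6 genes of lymphatic endothelium, 3 were higher in anterior pituitary ECs and 1 in cerebellum ECs, 1 and 1 without cerebellum EC replicate 1, and 1 and 1 of the calls held throughout. Lyve1 and Pdpn were at 1.5 TPM or less in all 4 libraries, and Mmrn1 was at 39.0 and 39.6 TPM in anterior pituitary ECs and 0.709 and 0.565 TPM in cerebellum ECs (log2 fold change -5.87 ± 0.31, edgeR adjusted p = 1.33e-06). The calls of Gja1, Hbb-bs and Hba-a1 were lost in limma on log2 TPM, that of Gja1 also with an offset for gene length and that of Hbb-bs in fits of the 4 libraries compared or the 6 WT libraries, with an adjusted p of up to 0.339, 0.123 and 0.0917.

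Other abundant endothelial genes, not described above, were chosen by mean TPM after the values were seen. Bsg (basigin), which carries Mct1 to the membrane, was at 2873 and 3597 TPM in cerebellum ECs and 94.4 and 72.6 TPM in anterior pituitary ECs, among the highest of all genes in cerebellum ECs (log2 fold change 5.18 ± 0.35, edgeR adjusted p = 2.66e-06). The phospholipid transfer protein Pltp was at 949.6 and 982 TPM in cerebellum ECs and 146 and 236 TPM in anterior pituitary ECs (log2 fold change 2.41 ± 0.38, edgeR adjusted p = 0.00154). In anterior pituitary, Apoe was at 1269 and 1684 TPM in anterior pituitary ECs and 636 and 275 TPM in cerebellum ECs (log2 fold change -1.79 ± 0.36, edgeR adjusted p = 0.00947), while in the GFP-negative cells of cerebellum it reached 6337 and 1794 TPM. Cd200, an inhibitor of myeloid cells, was at 753 and 453 TPM in anterior pituitary ECs and 196 and 355 TPM in cerebellum ECs (log2 fold change -1.90 ± 0.31, edgeR adjusted p = 0.00221). The calls of Apoe and Cd200 were lost in limma on log2 TPM, that of Cd200 also with an offset for gene length (log2 fold change -1.02), with an adjusted p of up to 0.0968 and 0.321.

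Posterior pituitary ECs of WT mice, which line the fenestrated capillaries of the neural lobe, were sequenced in 2 libraries of the same kind. Per the study's methods, the lobes of the pooled pituitaries were parted into different tubes, so that libraries of both lobes may share their mice. Their values are given side by side with those above and were not tested against them, since both sets of endothelial genes were chosen on the anterior pituitary libraries, which fixes in part how other libraries stand beside these. In them, the cerebellum endothelial genes held 1.70% and 1.49% of TPM, and the anterior pituitary endothelial genes 4.14% and 2.83%. Plvap was at 1159.7 and 1112 TPM, Igfbp3 at 809 and 1553 TPM and Gpihbp1 at 417 and 280.2 TPM in posterior pituitary ECs. Slc2a1 was at 21.1 and 24.8 TPM, Mfsd2a at 0 and 0.0335 TPM, Lef1 at 0.258 and 6.04 TPM and Ocln at 2.54 and 0.102 TPM. All of these levels lay on the anterior pituitary side of both cerebellum values. Other cerebellum endothelial genes were present in posterior pituitary ECs: Car4 was at 256 and 86.4 TPM, Sema3c at 56.1 and 29.6 TPM, Cxcl12 at 184 and 93.7 TPM and Fn1 at 97.4 and 126 TPM. Meis2 was at 124 and 141 TPM and Chrm3 at 3.48 and 4.26 TPM in posterior pituitary ECs, both lower than in either anterior pituitary library.

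Another pair of barrier and fenestrated beds was measured by another method. In RiboTag mice (Rpl22ribotag/+;Pdgfb-CreER), Pdgfb-CreER, induced with 4-hydroxytamoxifen, tags ribosomes in ECs, and the RNA bound to them was recovered from cortex and from choroid plexus, whose capillaries are fenestrated. The mice were 6 to 8 weeks old, the choroid plexi of 3 to 4 animals were pooled, and there were 2 WT bound libraries per tissue. Cortex is not cerebellum and choroid plexus is not pituitary, so that the comparison asks only whether the same genes part these beds too. Of 15175 genes tested there, 16.1% were higher in cortex and 13.7% higher in choroid plexus, with a median log2 fold change of 0.033. Of the 212 cerebellum endothelial genes, 96 were higher in cortex and 21 in choroid plexus, with a median of 0.86. Of the 204 anterior pituitary endothelial genes with a value, 29 were higher in cortex and 62 in choroid plexus, with a median of -0.66. A single gene held 50.9% and 46.9% of the TPM of the choroid plexus libraries, against 14.7% and 16.9% for the highest gene in cortex, and over the genes tested the median log2 ratio of (mean TPM + 0.1) of cortex over choroid plexus was 1.06. The fold changes below rest on counts, and a ratio of the TPM printed beside them can differ from them in either direction. With library totals in place of TMM factors, an alternative chosen after seeing the data, they moved little (median over all genes 0.036). With an offset for gene length, chosen in the same way, the medians of the 2 sets were 0.85 and -0.78.

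Named genes showed both outcomes. Slc2a1 was at 1527 and 546 TPM in bound RNA of cortex and 21.7 and 27.7 TPM in that of choroid plexus (log2 fold change 3.13 ± 0.48, edgeR adjusted p = 0.00112). Mfsd2a was at 78.8 and 25.3 TPM and 1.05 and 0.305 TPM (5.25 ± 0.48, adjusted p = 8.66e-05), and Cldn5 at 179.8 and 99.8 TPM and 4.10 and 5.31 TPM (2.62 ± 0.32, adjusted p = 0.000332). These were higher on the barrier side in both experiments. On the fenestrated side, Plvap was at 1.54 and 3.93 TPM in cortex and 84.2 and 124 TPM in choroid plexus (-7.20 ± 0.93, adjusted p = 0.000465), and Igfbp3 at 14.7 and 16 TPM and 79.8 and 124 TPM (-4.58 ± 0.29, adjusted p = 1.74e-05). Gpihbp1 was at 0 and 0 TPM and 50.3 and 50.6 TPM (adjusted p = 0.000149). Other genes had the reverse order. Meis2 was at 92.9 and 101 TPM in cortex and 12.6 and 2.77 TPM in choroid plexus (2.78 ± 0.71, adjusted p = 0.0156), and Ptgs1 at 58.7 and 40.7 TPM and 2.60 and 5.42 TPM (2.09 ± 0.36, adjusted p = 0.00221). Cgnl1, higher in cerebellum than in anterior pituitary ECs, was at 13.5 and 8.92 TPM in cortex and 793 and 693 TPM in choroid plexus (-5.17 ± 0.38, adjusted p = 3.07e-05). Axin2 was likewise lower in cortex (-1.51 ± 0.26, adjusted p = 0.00210), while Apcdd1 was higher there (5.35 ± 0.62, adjusted p = 0.000256). Bound RNA of a tissue also holds RNA of untagged cells, and its part in these values was not tested. The offset for gene length moved the log2 fold changes of Slc2a1 to 4.22, Cldn5 to 3.72, Plvap to -6.39, Igfbp3 to -3.89 and Cgnl1 to -7.22, and with it 2 of the genes named here were not called, Axin2 (-0.66, edgeR adjusted p = 0.204) and Meis2 (2.48, adjusted p = 0.0537).

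**Figure D4:**
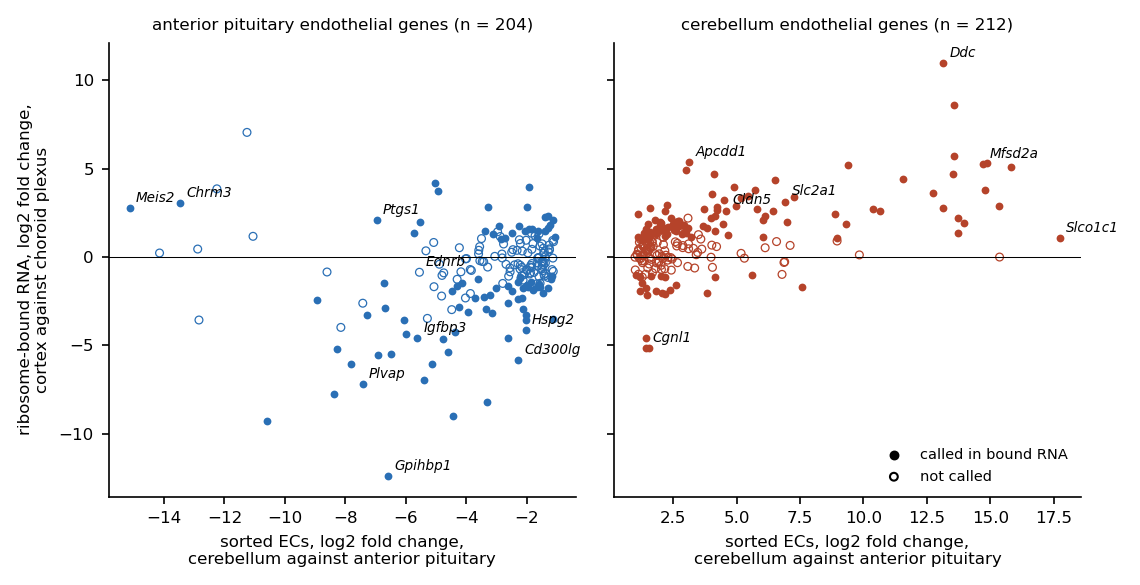
Log2 fold change of cortex over choroid plexus in ribosome-bound RNA (y axis) against that of cerebellum over anterior pituitary in sorted ECs (x axis) for the 204 anterior pituitary endothelial genes with a value (left) and the 212 cerebellum endothelial genes (right), with filled points for genes called in bound RNA. In bound RNA 62 of the 204 genes on the left were called higher in choroid plexus and 96 of the 212 on the right higher in cortex, and points on the other side of 0 include Meis2, Chrm3, Ptgs1 and Cgnl1.

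Open chromatin was measured by ATAC-seq in GFP+ cells of the same tissues, in 2 WT libraries each. Counting the peaks of over 2-fold enrichment and a -log10 q over 2, the cerebellum libraries held 26396 and 24021 peaks and those of anterior pituitary 36860 and 45042, so that more peaks were called in anterior pituitary. Within 1 kb of the main transcript start, 8880 (49.6%) of all genes tested had a peak in all 4 libraries. Only 69 (0.385%) had one in both cerebellum libraries and neither of the others, and 944 (5.27%) had one in both anterior pituitary libraries alone. Among the cerebellum endothelial genes the first class held 15 of 212 (7.08%) and the second 4 (1.89%). Among the anterior pituitary endothelial genes the first held 0 of 208 and the second 40 (19.2%). At most genes the promoter was open in both tissues: 139 (65.6%) of the cerebellum set and 112 (53.8%) of the anterior pituitary set had a peak in all 4 libraries. The cerebellum-only peaks included those of Slco1c1, at 10.1 and 11.0 fold enrichment, Slco1a4, at 7.08 and 3.31, and Sema3c, at 11.7 and 10.9. The anterior pituitary-only peaks included those of Plvap, at 7.99 and 9.59 fold enrichment, Cyp26b1, at 2.48 and 7.24, Chrm3, at 4.79 and 6.60, and Fabp4, at 3.38 and 3.91. By contrast, Slc2a1 and Cldn5 had a promoter peak in all 4 libraries, at 10.4 and 8.99 and 11.5 and 9.97 in cerebellum and 10.4 and 12.7 and 6.01 and 8.72 in anterior pituitary. The genes with a peak in the tissue of lower RNA alone were Dock9, Mecom, Lmo7 and Fmo2, named here after their values were seen. Their RNA calls were lost in 9, 0, 3 and 1 of 14 alternatives.

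**Figure D5:**
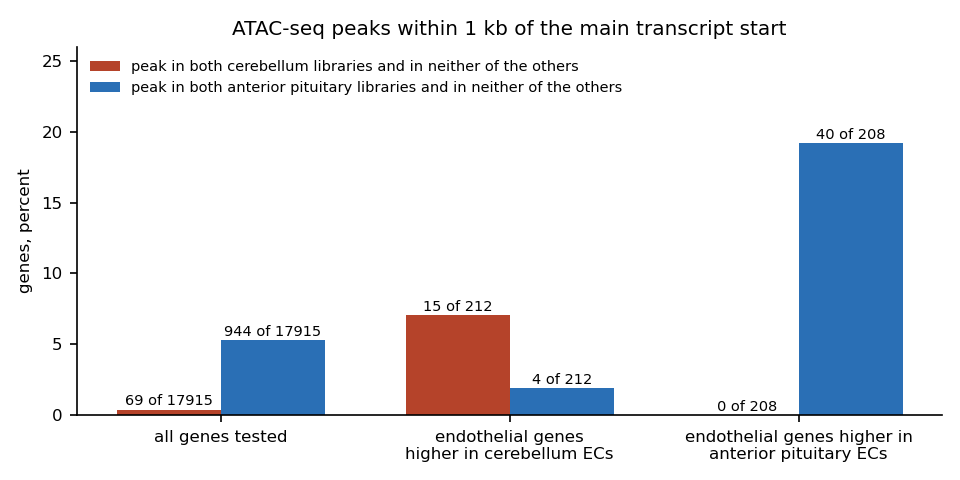
Percent of genes with an ATAC-seq peak within 1 kb of the main transcript start in both cerebellum libraries alone or in both anterior pituitary libraries alone, for all genes tested and for both sets of endothelial genes, with the counts above the bars. The cerebellum-only class is 15 of 212 among the cerebellum endothelial genes against 69 of 17915 over all genes, and the anterior pituitary-only class 40 of 208 against 944 of 17915.

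The promoters of 4 genes with a peak in 1 tissue alone are shown as examples of the sequence under such a peak, as the 250 bases before the RefSeq start in GRCm38.p6, read 5′ to 3′ on the strand of the gene. They were chosen after the values were seen. In both libraries of the tissue with the peak, peaks covered all 250 bases of each, and in the libraries of the other tissue 0. Capitals mark every match, on either strand, to the letters of 3 of 6 motif families searched, all of factors that ECs are known to use: TCF/LEF (ATCAAAG) and ETS (CAGGAAG) in Srarp, ETS (CTTCCTG, the reverse complement of CAGGAAG) in Pglyrp1 and Btnl9, and SOX (ACAATA) in Fam167b. Srarp lies at chr4:141436106-141436355 (minus strand), Pglyrp1 at chr7:18884440-18884689 (plus), Fam167b at chr4:129578581-129578830 (minus) and Btnl9, a butyrophilin-like surface protein, at chr11:49187090-49187339 (minus).
Srarp: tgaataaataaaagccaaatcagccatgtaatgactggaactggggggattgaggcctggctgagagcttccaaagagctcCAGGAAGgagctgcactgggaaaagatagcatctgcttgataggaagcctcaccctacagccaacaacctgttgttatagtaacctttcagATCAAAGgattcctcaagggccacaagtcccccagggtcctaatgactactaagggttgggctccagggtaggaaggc
Pglyrp1: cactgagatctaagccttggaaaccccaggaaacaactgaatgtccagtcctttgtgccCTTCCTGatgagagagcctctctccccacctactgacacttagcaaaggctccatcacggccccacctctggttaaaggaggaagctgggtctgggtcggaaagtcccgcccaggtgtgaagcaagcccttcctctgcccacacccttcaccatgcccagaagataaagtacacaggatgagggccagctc
Fam167b: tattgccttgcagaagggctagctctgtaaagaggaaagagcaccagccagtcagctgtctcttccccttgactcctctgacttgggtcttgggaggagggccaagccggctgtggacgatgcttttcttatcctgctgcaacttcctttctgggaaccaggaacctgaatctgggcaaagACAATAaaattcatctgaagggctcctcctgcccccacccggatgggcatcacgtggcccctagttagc
Btnl9: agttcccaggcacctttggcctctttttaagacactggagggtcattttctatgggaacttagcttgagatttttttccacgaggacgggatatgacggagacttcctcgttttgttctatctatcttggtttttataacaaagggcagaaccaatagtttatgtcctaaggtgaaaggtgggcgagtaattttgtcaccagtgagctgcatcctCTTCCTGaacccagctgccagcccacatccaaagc

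The TCF/LEF match in Srarp starts at base -78 and the ETS match at -169, those in Pglyrp1, Fam167b and Btnl9 at -191, -69 and -35. Srarp had promoter peaks of 7.05 and 5.11 fold enrichment in the cerebellum libraries, and Pglyrp1 of 11.1 and 10.4. Fam167b had peaks of 6.78 and 8.57 in the anterior pituitary libraries, and Btnl9 of 6.91 and 7.80, beside RNA levels of 66.7 and 76.8 TPM there and 0 and 1.5 TPM in cerebellum ECs, a call lost in 2 of 14 alternatives. In 300-base RefSeq windows, from 250 before to 50 after the start and read on both strands, ATCAAAG or TTCAAAG was found in 8.59% of 163 cerebellum and 6.25% of 160 anterior pituitary endothelial genes with a sequence, in 6.27% of 12018 genes tested and in 8.65% of all 32851 promoters. The SOX letters (ACAATG or ACAATA) were in 12.9% and 11.9% of the 2 sets and in 12.0% of the genes tested, and the ETS letters (CCGGAAG or CAGGAAG) in 17.8% and 14.4%, against 27.3%. The letters of the other 3 families are not marked in the sequences. Those of KLF factors (CCCCACCC) were in 26 of 163 cerebellum and 28 of 160 anterior pituitary endothelial genes (17.5%), against 12.4% of the genes tested, those of FOX factors (TGTTTAC) in 3.68% and 2.50%, against 2.62%, and those of MEIS factors (TGACAG) in 17.2% and 16.2%, against 16.9%. Of the 11 cerebellum endothelial genes with a sequence and a promoter peak in cerebellum alone, 2 (18.2%) held the TCF/LEF letters, 3 (27.3%) the SOX letters and 2 (18.2%) the ETS letters. Of the 28 such genes of anterior pituitary, these were 1 (3.57%), 5 (17.9%) and 3 (10.7%).

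For genes with several transcripts the main one was compared as well. Of 3746 genes at 10 TPM or more in all 4 libraries, 1217 had a different main transcript in the 2 tissues by mean share. In 40, the mean share of each tissue's main transcript was at least 50 percentage points higher in its own tissue, with no overlap between libraries. Of these genes 2 were also called in total level, Ctsd and Parvb. Ctsd lost the call in 8 of 14 alternatives, with an adjusted p of up to 0.167. Parvb lost it with an offset for gene length, at a log2 fold change of 1.39 and an adjusted p of 0.0803, and in limma on log2 TPM, with one of up to 0.108. Parvb, a focal adhesion protein higher in cerebellum ECs at 86.1 and 95.3 TPM in cerebellum ECs and 29.6 and 45.4 TPM in anterior pituitary ECs (log2 fold change 2.54 ± 0.28, edgeR adjusted p = 9.69e-05), had Parvb-201 as its main transcript in cerebellum, with 100% and 76.8% of its TPM, and 40.5% and 34.1% in anterior pituitary. Shares of transcripts from single-end reads of amplified cDNA rest on few distinguishing bases. They also differed between replicates: in the cerebellum libraries Ctsd-202 held 38.5% and 100% of its gene, and Apip-201 11.2% and 100%. How often the main transcript differed between replicates of 1 tissue was not counted. The 1217 genes are thus not read as a difference between tissues.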

How the data were processed

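RNA was measured in 12 GFP+ and 12 GFP-negative sorted libraries and in RiboTag libraries, and open chromatin by ATAC-seq. The deposited RNA files give Salmon (0.10.2) estimated counts, TPM and effective lengths per transcript, which the authors quantified against Ensembl 92 (GRCm38). The 130338 of 130740 transcripts that matched GENCODE M21 were summed to genes and expected counts were rounded. Deposited narrowPeak files hold the fold enrichment over background as a ratio and the -log10 q that the authors obtained per library with Bowtie2 (2.3.2) and MACS2 (2.1.1.20160309), per the submitters' processing notes.

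Counts were normalized by TMM, filtered with filterByExpr and fitted with edgeR 4.0.16 (glmQLFit) over 12 GFP+ libraries, with Benjamini-Hochberg adjusted p over all 17915 genes. Calls required an adjusted p below 0.05 together with a 2-fold difference. The same test was used for GFP+ against GFP-negative cells and their interaction (24 libraries) and for 8 bound RiboTag libraries. Of these 8, 4 were of WT mice. The others were of mice with stabilized beta-catenin and share the estimate of the spread. Intervals are exact (Clopper-Pearson, 95%) for genes with 1 to 3 counts in the lower tissue, and 3 counts is the floor for a count of 0. Depth was 28116011 to 33458597 counts per library compared. DESeq2 1.42.0, limma 3.58.1, other scalings, filters and sample sets, a replicate block and leaving out each library were alternatives. The EBSeq test of the original processing was not used here.

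The members, gene lists and alternatives were chosen with earlier results of these data known. Named genes were the 15 largest called endothelial differences in each direction and, per list, up to 6 called members per direction and 3 that were not called, by mean TPM (331 genes). Genes given with values outside this rule are marked where they occur, and some other list members are named without values. The scripts were tested on counts simulated from the means and spreads of the GFP+ libraries. Of 50 genes each changed 2-, 4-, 8- and 16-fold, edgeR called 2%, 46%, 76% and 86%, and DESeq2 6%, 62%, 86% and 92%. Of the genes left unchanged in these counts, edgeR called 11 and DESeq2 147. A change of 2-fold lies at the threshold itself. A gene that did not pass the test is thus not shown to be equal in the 2 tissues. 1 library of the fit carried conflicting tissue labels and was used as its title gives it. It enters the spread alone. RefSeq promoter sequences (GRCm38.p6) were matched by symbol. A few list members are not reported here by name. Counts of these genes called between anterior and posterior pituitary are not given, since the genes were chosen on the same anterior pituitary libraries.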

Additional observations from a re-analysis of the deposited data

Results flagged for a closer look

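Among the 331 named genes, some differed between the 2 tissues in ECs in another way than in the GFP-negative cells around them, by the edgeR test of the interaction. The named genes called in opposite directions in the 2 fractions were Gja1 (adjusted p = 2.46e-07), Cyp26b1 (2.07e-05), Sema3d (5.92e-05), Degs2 (6.97e-05), Irx5 (0.000534), Abca1 (0.00182), Efnb2 (0.00549), Gata2 (0.00852) and Ntn4 (0.0125). The call in ECs was lost for Gata2 in 13 of 14 alternatives, for Gja1 in 3, and for Efnb2 and Ntn4 in 2 each, with an adjusted p of up to 0.583, 0.339, 0.102 and 0.0652. For Ntn4 these were a fit of the 6 WT libraries and the fit that left out 1 library (adjusted p = 0.0652 without cerebellum EC replicate 2). Gja1, which couples cells through gap junctions and is abundant in astrocytes, was at 474 and 439.8 TPM in anterior pituitary ECs and 78.9 and 78.0 TPM in cerebellum ECs, but at 1.02 and 42.4 TPM in the GFP-negative cells of anterior pituitary and 1673 and 588 TPM in those of cerebellum. Degs2 was at 30.0 and 31.7 TPM in cerebellum ECs, 0 in anterior pituitary ECs and 0 in GFP-negative cells of cerebellum, against 0.928 and 0.713 TPM in those of anterior pituitary. Irx5 was at 10.0 and 26.3 TPM in anterior pituitary ECs and 8.10 and 2.39 TPM in GFP-negative cells of cerebellum.

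For Cav1 (adjusted p = 0.00131), Irf1 (0.0185) and Prl (0.0103) the interaction had the opposite sign to the difference in ECs, and the calls of Cav1 and Irf1 in ECs were lost in 2 of 14 alternatives each. Cav1 was at 16.6 and 3.03 TPM in GFP-negative cells of cerebellum and 0 and 0.0277 TPM in those of anterior pituitary, a larger ratio than in ECs, and Irf1 was at 3.05 and 1.85 TPM and 66.9 and 84.6 TPM.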

How the results depend on the processing

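DESeq2 called 983 genes higher in cerebellum ECs, 535 of them shared with the 538 of edgeR, and 836 higher in anterior pituitary ECs, 403 of them shared with the 404. In the interaction it called 694 and 973. Without a filter on low counts 697 genes were higher in anterior pituitary ECs. A fit of the 6 WT libraries gave 347 genes higher in cerebellum ECs, and an offset for gene length 343. Limma on log2(TPM + 1) gave 122 cerebellum and 136 anterior pituitary endothelial genes, on log2(TPM + 0.1) 115 and 119, and with no enrichment over GFP-negative cells required there were 385 and 319. Why these settings differ was not tested. Leaving out 1 library at a time gave 423 to 486 genes higher in cerebellum ECs, 320 to 392 higher in anterior pituitary ECs, and 152 to 196 and 168 to 193 endothelial genes, where the lone sample left is assumed to vary like the other groups. The other counts over the whole table and those of RiboTag and ATAC-seq stayed within 1.5 times, except that with stricter peaks 1 anterior pituitary endothelial gene, against 0, had a promoter peak in cerebellum only, and that with an offset for gene length on the bound libraries, chosen after seeing the data, 15 anterior pituitary endothelial genes, against 29, were higher in cortex. Counts within a list moved more. With an offset for gene length, the calls kept of those higher in cerebellum ECs were 2 of 4 ABC transporters, 3 of 7 tight junction, 4 of 8 Notch and arterial, 3 of 5 BMP, 2 of 4 guidance and 1 of 3 glycolysis genes, and of those higher in anterior pituitary ECs 5 of 8 MHC and interferon genes and none of the single calls among transporters, Wnt receptors, Wnt feedback, venous and astrocyte genes. Without cerebellum EC replicate 1, Notch and arterial genes higher in anterior pituitary ECs went from 1 to 2, the Wnt receptor and Wnt feedback genes higher there from 1 to 0 each and fibroblast markers higher there from 0 to 1, and the immediate early, pituitary stem and lymphatic lists moved as given in the report. No called gene among the 331 named changed sign while called, and 107 of the 181 called were called under each of their alternatives. Other scalings moved the median of all genes by -0.0173 to 0.0258 on the log2 scale.

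The replicate numbers do not pair the samples by any label. The deviations of replicate 1 from the group mean did not go together in cerebellum and anterior pituitary (correlation -0.00988 over 17915 genes). With 2 replicates, the deviations of replicate 2 mirror these and add nothing. With the replicate number as a block, 558 and 421 genes were called, 214 and 214 endothelial genes, and 213 and 381 in the interaction.

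With 2 libraries per tissue, genes at a few counts in the lower tissue give only bounds, and of 6694 genes at 10 TPM or more in a cerebellum library 463 were over 4-fold higher in replicate 1 and 252 in replicate 2, of 7031 in anterior pituitary 442 and 518. Lists were recounted without cerebellum EC replicate 1, chosen after seeing the data.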
